A study of Mus musculus with 2 samples.

Results

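The genes described here are 32 genes of glycolysis and of the cellular response to low oxygen, chosen by name out of the 28482 genes counted in the series. All 32 had a row in the count matrix. They are the oxygen-sensing factor Hif1a, the glucose transporters Slc2a1 and Slc2a3, the glycolytic enzymes Hk1, Hk2, Hk3, Gpi1, Pfkl, Pfkp, Pfkm, Pfkfb3, Pfkfb4, Aldoa, Tpi1, Gapdh, Pgk1, Pgam1, Eno1, Pkm and Ldha, the lactate transporters Slc16a3 and Slc16a1, and the hypoxia-response genes Bnip3, Bnip3l, Egln1, Egln3, Vegfa, Ddit4, Pdk1, P4ha1, Mxi1 and Higd1a. They were followed across neutrophil stages, microglia, monocytes and macrophages, and subsets of T cells. The cells were CD45+, that is leukocytes and microglia, and came from the spinal cords of 4 C57BL/6 mice. All 4 mice had experimental autoimmune encephalomyelitis (EAE), in which the immune system attacks myelin of the brain and spinal cord, and were taken on day 15. Of these, 2 were untreated and 2 had received an inhibitor, which the sources used here do not name or describe further. No mouse without EAE was analysed here. Each mouse carried its own antibody hashtag, and the 4 were pooled on a single BD Rhapsody run amplified by TAS-Seq.

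Glycolysis splits glucose into pyruvate through a fixed chain of cytosolic enzymes, and lactate dehydrogenase turns the pyruvate into lactate so that the chain can run without oxygen. HIF-1 alpha, the protein of Hif1a, is marked for destruction by the prolyl hydroxylases EGLN1 and EGLN3 when oxygen is present. When oxygen is short, or when inflammatory signals stabilise it, the protein binds a short core motif near its target genes, which include glucose transporters and most glycolytic enzymes. Neutrophils are known to live mainly on glycolysis, and activated T cells and macrophages are known to increase it.

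Of 25461 cell columns, 21518 carried a single hashtag, and 19256 cells were kept after filters on mitochondrial counts and on expected doublets, 4262 to 5467 per mouse. The kept cells of a mouse held 47748513 to 61749530 counts in all, with a median of 8145 to 8596 counts per cell. Cells were clustered on variable genes from which the 32 genes had been left out, and clusters were named from marker lists, with naming thresholds set after the clusters were seen. The neutrophil-like cells (7231) fell into cycling precursors (439), immature cells (2642), mature cells (2758) and inflammatory cells led by Il1b (1392). The other classes were microglia-like cells (1515), monocytes and macrophages (466), and T-like cells (7233 in all), among them 4738 CD4, 635 regulatory, 520 CD8 and 482 gamma-delta cells. The 14 neutrophil markers summed to between 257800 and 266200 CPM in the neutrophils of the 4 mice and to between 510 and 529 in all T cells. The 17 microglia markers summed to between 26500 and 44220 in microglia and to at most 1601 in monocytes and macrophages. Other lists separated the classes less. The 18 monocyte and macrophage markers summed to 20300 to 27910 CPM in the class of that name, but also to 21820 to 24640 in cycling precursors and 18690 to 23450 in immature neutrophils. Monocytes and macrophages also held 8972 to 14740 CPM of the 11 secondary granule markers and 1858 to 8875 of the 15 markers of dendritic cells other than plasmacytoid ones. The secondary granule markers were higher in precursors (123700 to 129300 CPM) than in the immature cells (104100 to 122500). Microglia held 3786 to 11380 CPM of these dendritic cell markers, and T cell transcripts, which are given below beside the results they touch. The part of these transcripts in the levels of the 32 genes was not tested. Some values are given without cells holding T cell receptor transcripts. That term stands for counts of Cd3d, Cd3e, Cd3g, Trac, Trbc1 or Trbc2, and the gamma and delta chain genes were not among them. Levels below are CPM, that is counts per 1000000 of the counts summed over a class in 1 mouse, and ± values are SD over the 4 mice unless the groups are named. Where 4 values are listed, they stand in the order untreated 1, untreated 2, inhibitor 1, inhibitor 2. The classes were cut from the same cells, so differences between classes are described and not tested. The counts were not corrected for length, so levels of different genes are not ranked, and shares of a gene family's counts are compared between classes for the same gene only.

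The core HIF-binding motif has the letters ACGTG or GCGTG, and was searched on both strands within 250 bases before each annotated start in the RefSeq promoters of build GRCm38.p6. Of the 30 genes with a promoter in that table, 28 (93.33%) held at least 1 match. The share was 62.7% among the 7046 genes with a promoter and a mean of at least 10 CPM, and 41.54% among all 27025 symbols. A match is a stretch of letters and not a shown binding site. The stretches below are shown for genes whose levels set the classes apart in these data. They include the isozyme genes Hk3 and Hk2, the shared enzymes Pgk1 and Ldha, and Hif1a itself. The others are hypoxia-response genes that kept the same highest class in every alternative tried for class levels. That class was inflammatory neutrophils for Bnip3 and Egln3 and microglia for Pdk1 and P4ha1. Each stretch is 80 bases, 5′ to 3′ on the gene's strand, upstream of the start and outside annotated exons. Capitals mark matches to the motif on either strand, and overlapping matches run together. Hk3 (chr13:55021467-55021546, minus strand) held 1 match, Hk2 (chr6:82774455-82774534, minus) held 1, Bnip3 (chr7:138909549-138909628, minus) held 4, and Egln3 (chr12:54204029-54204108, minus) held 1. Pdk1 (chr2:71873141-71873220, plus) held 1, P4ha1 (chr10:59323128-59323207, plus) held 2, Pgk1 (chrX:106186945-106187024, plus) held 2, Ldha (chr7:46845724-46845803, plus) held 3, and Hif1a (chr12:73907727-73907806, plus) held 3.
Hk3: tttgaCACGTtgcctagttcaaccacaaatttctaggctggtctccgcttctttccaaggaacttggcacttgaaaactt
Hk2: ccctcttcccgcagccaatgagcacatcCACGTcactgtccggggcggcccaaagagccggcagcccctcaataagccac
Bnip3: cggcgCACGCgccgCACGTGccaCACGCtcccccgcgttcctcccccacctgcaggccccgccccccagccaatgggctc
Egln3: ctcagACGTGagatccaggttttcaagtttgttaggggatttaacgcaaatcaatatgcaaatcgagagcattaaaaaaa
Pdk1: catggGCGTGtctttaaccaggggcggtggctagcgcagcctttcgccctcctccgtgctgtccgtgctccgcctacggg
P4ha1: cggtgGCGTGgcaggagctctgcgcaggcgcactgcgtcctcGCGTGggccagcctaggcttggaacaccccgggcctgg
Pgk1: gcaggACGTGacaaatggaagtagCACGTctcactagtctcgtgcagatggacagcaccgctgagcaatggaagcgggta
Ldha: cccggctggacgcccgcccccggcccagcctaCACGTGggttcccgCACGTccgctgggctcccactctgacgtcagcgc
Hif1a: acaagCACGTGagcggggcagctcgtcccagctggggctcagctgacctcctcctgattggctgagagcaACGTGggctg

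All neutrophils pooled gave a larger share of their counts to the 32 genes than T cells, monocytes and macrophages, or microglia, and microglia gave the smallest share of the 10 classes followed. Cycling precursors, at 7403 ± 169 CPM, lay apart from the other neutrophil stages (means of 9547 to 10356) and within the spread of regulatory T cells. The summed level was 9498 ± 103 CPM in all neutrophils, 6554 ± 584 in monocytes and macrophages, 6404 ± 693 in all T cells and 3767 ± 550 in microglia. By mouse it was 9490, 9392, 9638 and 9471 CPM in neutrophils and 4029, 4340, 3064 and 3636 in microglia, with no overlap between these classes. Among other cells of the sort, plasmacytoid dendritic cells (2605 ± 30 CPM) and B-lineage cells (3275 ± 309) had lower means than microglia, and NK cells reached 4483 ± 326. S100a8 and S100a9 alone took 14.09% to 22.45% of the counts in the neutrophil stages and at most 0.1694% in the other classes, which lowers every other gene's CPM in neutrophils. Trimmed-mean (TMM) scaling across classes is a scaling that does not count such genes. With it the sums were 16180 CPM in neutrophils, 5039 in T cells, 4742 in monocytes and macrophages and 2980 in microglia. Neutrophils thus stayed highest and microglia lowest of these. Precursors, at 9358 CPM under TMM scaling, were below the other neutrophil stages (15170 to 19240) but no longer near regulatory T cells (5496).

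**Figure D1:**
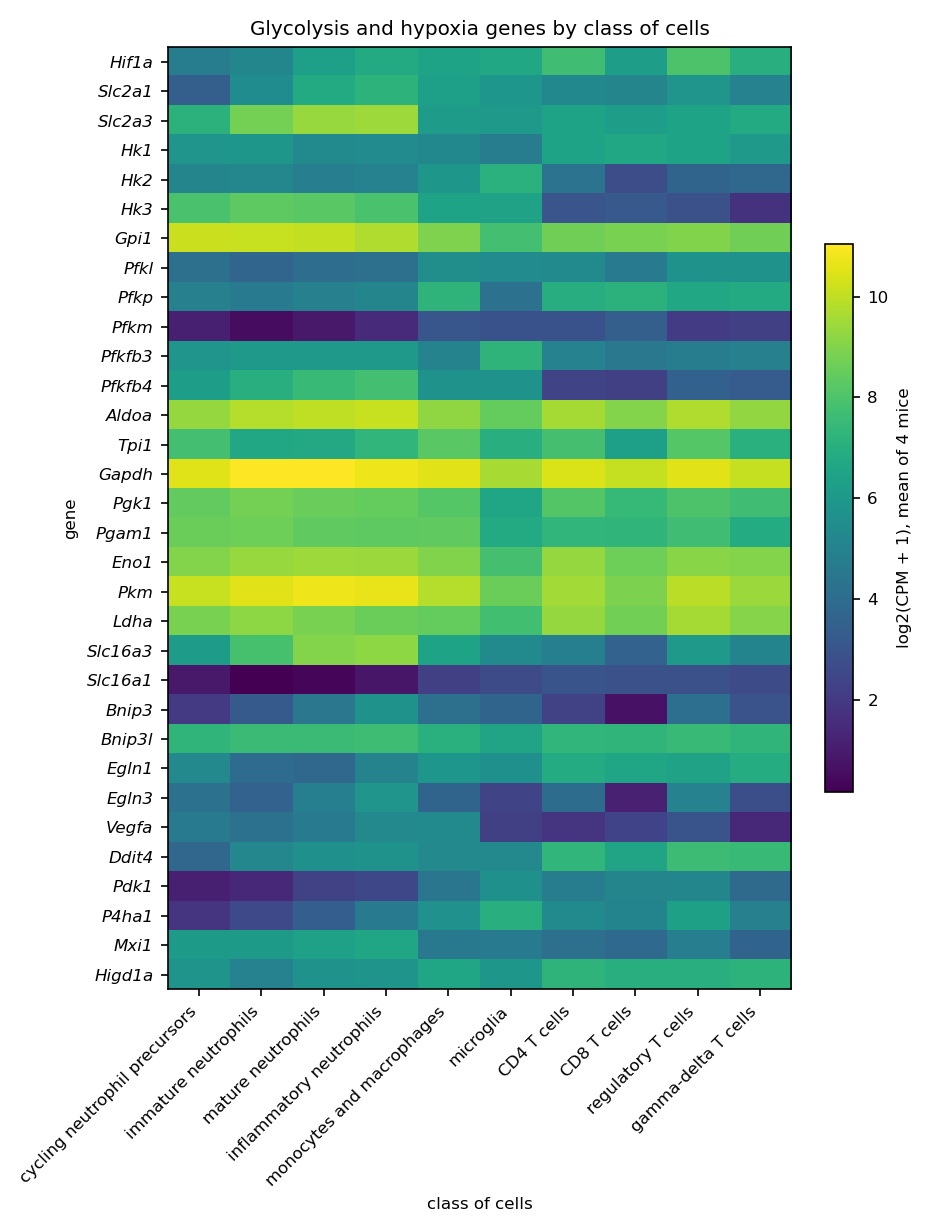
Mean level by CPM over 4 mice of each of the 32 genes (rows) in each of the 10 classes (columns), as log2(CPM + 1) on a linear colour scale. The glucose transporter Slc2a3, the hexokinase Hk3, Pfkfb4 and the lactate transporter Slc16a3 are brightest in the neutrophil columns, Hk2, Pfkfb3 and P4ha1 are brightest in microglia, and Hif1a is brightest in regulatory and CD4 T cells.

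Single genes spread more widely than their sum. In 24 of the 32 genes the highest class mean was at least 4 times the lowest, and the ratio reached 137-fold for Hk3. This count, and those of highest and lowest classes below, were not made over all genes. They therefore describe the 32 genes without a background. By CPM, 16 genes were highest in a neutrophil stage, 9 in a T cell subset, 4 in microglia and 3 in monocytes and macrophages, while 12 were lowest in microglia. TMM scaling changed the highest class for 15 of the 32, 7 of them from one neutrophil stage to another, 5 (Hk1, Pfkfb3, Tpi1, Ldha, Vegfa) from another class to a neutrophil stage, and 3 (Pfkl, Pfkp, Egln1) between other classes. Under all 5 alternatives tried for class levels, 9 genes kept the same highest class: Hif1a (regulatory T cells), Slc2a1, Bnip3 and Egln3 (inflammatory neutrophils), Hk3 and Pgk1 (immature neutrophils), and Hk2, Pdk1 and P4ha1 (microglia). Pfkm and Slc16a1 stayed under 10 CPM on average in each of the 10 classes. Both are among the 24, and had 17 and 9 counts in their lowest class.

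Glucose enters these cells through GLUT1, encoded by Slc2a1, and the higher-affinity GLUT3, encoded by Slc2a3. Slc2a3 stood at 498, 434, 490 and 502 CPM in all neutrophils against 74.6, 90.3, 87.6 and 89.9 in all T cells, a 5.62-fold difference (12.2-fold under TMM scaling). In microglia it stood at 74.7, 67.0, 64.4 and 51.4 CPM. Microglia and T cells overlapped, and every neutrophil value was above both. Slc2a1 differed less, at 69.7, 67.9, 78.2 and 65.0 CPM in neutrophils and 67.4, 57.5, 54.6 and 49.9 in microglia. Of the counts of both transporters, Slc2a1 took 12.76% ± 1.076 in neutrophils, 30.66% ± 4.72 in T cells and 47.18% ± 1.54 in microglia. These shares do not depend on the scaling between classes.

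Hexokinase takes the first step by phosphorylating glucose, and the make-up of its counts differed between neutrophils, T cells and microglia. Hk3 stood at 303, 295, 275 and 307.1 CPM in all neutrophils and at 8.13, 5.98, 5.29 and 5.16 in all T cells, 48.1-fold apart (104-fold under TMM scaling). It made up 77.85% ± 0.99 of the counts of the 3 hexokinase genes in neutrophils and 5.96% ± 1.32 in T cells. In T cells Hk1 took 79.52% ± 2.01 of them, at 82.5, 77.4, 84.2 and 84.1 CPM. Hk1 was lower in neutrophils by CPM (45.4, 52.1, 51.8 and 56.4) but higher there under TMM scaling, so its direction between these classes depends on the scaling. Hk2, the isozyme that binds the mitochondrial outer membrane along with Hk1, was higher in microglia than in any other of the 10 classes. It stood at 157, 114, 135 and 150 CPM there against 13.8, 15.7, 12.6 and 17.9 in T cells, 9.26-fold apart, and 37.7, 28.5, 33.1 and 30.6 in neutrophils. Monocytes and macrophages lay between, with Hk2 at 68.8, 60.7, 46.9 and 61.3 CPM and Hk3 at 47.58% ± 5.40 of the hexokinase counts. Exons of Hk3 overlap Unc5a and those of Hk1 overlap Hk1os on the other strand, and the use of strand in counting is not given in the sources used here, so reads of these pairs cannot be told apart.

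**Figure D2:**
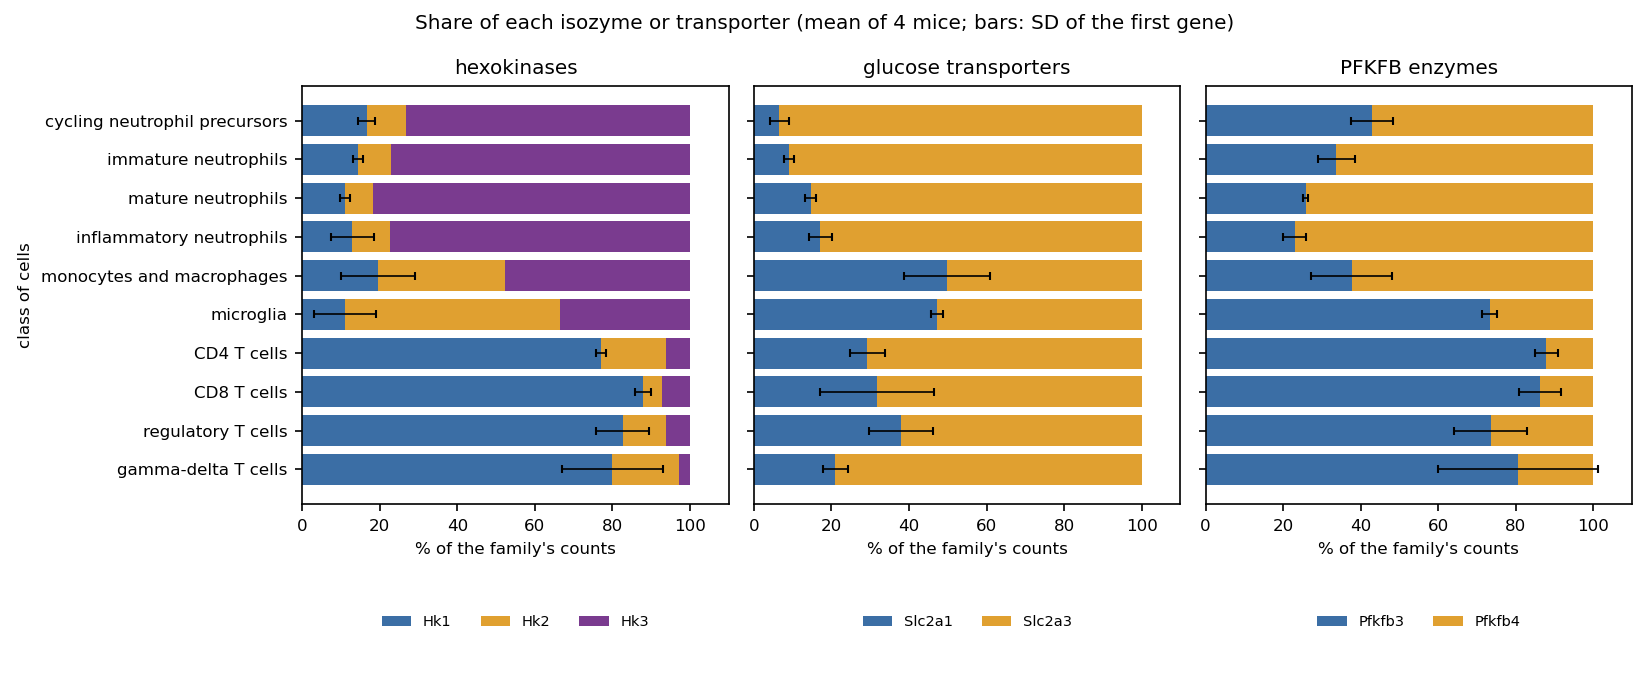
Share (%) of each gene in the counts of its family, for the hexokinases, the glucose transporters and the PFKFB enzymes, in the 10 classes (mean of 4 mice; error bars are the SD of the gene drawn first). Hk3 takes 77.85% of hexokinase counts in all neutrophils, Hk1 79.52% in all T cells and Hk2 55.61% in microglia, and the share of Pfkfb4 is 69.89% in all neutrophils, 26.70% in microglia and 14.83% in all T cells.

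Phosphofructokinase commits the sugar to glycolysis, and the PFKFB enzymes make and remove fructose 2,6-bisphosphate, its strongest activator. Pfkfb4 stood at 135, 153, 147 and 149 CPM in all neutrophils against 5.12, 4.61, 5.88 and 3.25 in T cells, 31.0-fold apart (67.1-fold under TMM scaling). Its share of the Pfkfb3 and Pfkfb4 counts was 69.89% ± 2.01 in neutrophils, 26.70% ± 1.98 in microglia and 14.83% ± 2.13 in T cells. Pfkfb3 was highest in microglia by CPM, at 134.3, 105.5, 184.1 and 167.6, but in immature neutrophils under TMM scaling. Among the 3 subunit genes, Pfkp, the platelet-type subunit, made up 72.33% ± 4.86 of the counts in T cells and 75.06% ± 4.48 in monocytes and macrophages. In microglia the liver-type Pfkl took 64.57% ± 7.91 and Pfkp 25.97% ± 8.81. The muscle-type Pfkm was at 0 to 17.8 CPM in single mice over the 10 classes. Exons of Pfkp overlap Pitrm1 and those of Pfkm overlap Senp1 on the other strand.

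The 9 enzymes from glucose-6-phosphate to lactate (Gpi1, Aldoa, Tpi1, Gapdh, Pgk1, Pgam1, Eno1, Pkm and Ldha) summed to 7493 ± 95 CPM in neutrophils, 5271 ± 324 in monocytes and macrophages, 5098 ± 652 in T cells and 2525 ± 514 in microglia. They did not differ alike. Pyruvate kinase (Pkm), which makes pyruvate, stood at 1579, 1494, 1519 and 1494 CPM in neutrophils and 774, 730, 600 and 823 in T cells, 2.08-fold apart (4.50-fold under TMM scaling). Glucose-6-phosphate isomerase (Gpi1) was 2.58-fold higher in neutrophils, at 1070 ± 60 against 416 ± 26 CPM (5.58-fold under TMM scaling). Enolase (Eno1), at 648 ± 13 and 588 ± 57 CPM, and lactate dehydrogenase A (Ldha), at 502 ± 32 and 639 ± 94, overlapped between neutrophils and T cells by CPM, and both were higher in neutrophils under TMM scaling. Triose-phosphate isomerase (Tpi1) overlapped too, at 129 ± 25 and 220 ± 56 CPM. Eno1 has a near-identical copy, Eno1b, and Gapdh, Ldha and Pgam1 have many processed pseudogenes, so their counts may include or lack shared reads. Exons of Tpi1 and Gapdh overlap Spsb2 and Iffo1 on the other strand.

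Lactate leaves the cell through monocarboxylate transporters, and Slc16a3, which encodes the exporter MCT4, was among the genes that set neutrophils apart. It stood at 376, 281, 350 and 326 CPM in neutrophils and 34.8, 24.7, 23.3 and 34.98 in T cells, 11.3-fold apart (24.5-fold under TMM scaling). Microglia had 41.5, 29.96, 44.2 and 46.2 CPM. Slc16a1, which encodes MCT1, was at 0 to 8.57 CPM in single mice except for CD4 T cells of inhibitor 2 at 11.3, and it reached a mean of 21.1 CPM in the cycling T cells.

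Genes were counted between classes, here and below, where the average of both class means was at least 10 CPM. Of the 30 such genes, 17 were higher and 9 lower in neutrophils than in T cells in all 4 mice without overlap. The same held for 19.4% and 66.6% of the 8149 genes at that level. The median log2 ratio of neutrophils over T cells was 0.53 over the 30 genes and -0.93 over all of them. Under TMM scaling the counts were 21 higher and 7 lower, beside 47.1% and 31.7% of all genes. The genes lower in neutrophils under both scalings were Hif1a, Pfkp, Egln1, Ddit4, Pdk1, P4ha1 and Higd1a, which include 5 of the 10 hypoxia-response genes and 1 glycolytic enzyme gene. The messenger of Hif1a stood at 59.3, 47.2, 58.0 and 56.4 CPM in neutrophils and 168, 190, 157 and 195 in T cells, 3.22-fold higher in T cells by CPM and 1.49-fold under TMM scaling. Pdk1, a kinase that turns off pyruvate dehydrogenase and so keeps pyruvate out of mitochondria, was 9.71-fold higher in T cells (25.1 ± 1.9 against 2.59 ± 0.73 CPM; 4.48-fold under TMM scaling). Egln1, the main oxygen sensor of the HIF pathway, was 5.43-fold higher in T cells (108 ± 5 against 19.9 ± 1.3; 2.505-fold under TMM scaling), and Ddit4, a stress-induced brake on mTORC1, 4.05-fold (152 ± 15 against 37.6 ± 6.3; 1.87-fold under TMM scaling). On the other side, Vegfa, the angiogenic growth factor, was 6.22-fold higher in neutrophils (22.9 ± 1.2 against 3.68 ± 1.00 CPM; 13.5-fold under TMM scaling), and Mxi1, a MYC antagonist, 4.59-fold (74.7 ± 4.0 against 16.3 ± 2.1; 9.94-fold). Exons of Hif1a, Mxi1 and Higd1a overlap other-strand genes (Gm15283, Gm10197 and Gm47112).

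Along the neutrophil stages the glucose transporter genes Slc2a1 and Slc2a3 and the lactate exporter gene Slc16a3 were higher at each later stage up to the mature cells. The other lactate transporter gene, Slc16a1, was under 1 CPM on average at every stage. Of the 9 enzymes from Gpi1 to Ldha, 4 (Gapdh, Pgk1, Pgam1, Ldha) were highest by CPM in immature cells, Eno1 and Pkm in mature cells, Gpi1 and Tpi1 in precursors and Aldoa in inflammatory cells. Slc2a1 stood at 11.7, 14.1, 10.4 and 4 CPM in cycling precursors, 49.7, 40.3, 46.0 and 34.1 in immature, 103, 127, 112 and 105.9 in mature, and 98.9, 149, 185 and 155 in inflammatory neutrophils. The first 3 stages did not overlap, and mature and inflammatory cells did. With cells thinned to 2000 counts, precursors and immature cells overlapped too. Slc16a3 followed the same order, at 69.0 ± 12.7, 231 ± 15, 517 ± 61 and 580 ± 34 CPM, with overlap between the last 2 stages. Slc2a3 had 141 ± 14, 429 ± 25, 652 ± 33 and 706 ± 32 CPM and Pfkfb4 75.5 ± 7.25, 130 ± 13, 180 ± 19 and 219 ± 10. With TMM scaling Slc2a3, Slc16a3 and Pfkfb4 were highest in mature cells. Gapdh went from 1463 ± 70 CPM in precursors to 2104 ± 90 in immature and 2079 ± 102 in mature cells and 1728 ± 127 in inflammatory cells, and the last step down held under TMM scaling too. Among cells with at most 10% mitochondrial counts, mature and inflammatory cells overlapped in Gapdh. Hk3 took a similar course, from 243 ± 17 CPM over 324 ± 11 and 302 ± 24 to 243 ± 27.

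Of Hif1a and the 10 hypoxia-response genes, 4 (Hif1a, Bnip3, Egln1, Egln3) were higher by CPM in inflammatory than in mature cells without overlap, beside 14.4% of all genes. Under TMM scaling Bnip3 and Egln1 were, beside 3.8% of all genes. Hif1a stood at 28.8, 18.6, 22.7 and 31.7 CPM in precursors, 37.3, 31.95, 30.4 and 38.3 in immature, 78.6, 77.1, 83.1 and 73.9 in mature and 109, 95.0, 134 and 112 in inflammatory neutrophils. Mature cells were above immature ones under both scalings (2.27-fold by CPM), whereas the step to inflammatory cells (1.44-fold) overlapped under TMM scaling. Bnip3, a mitochondrial protein that drives mitophagy, stood at 15.8, 28.6, 21.6 and 19.0 CPM in mature and 59.6, 53.1, 52.9 and 42.4 in inflammatory cells. This 2.45-fold step, and the 2.43-fold step of Egln1 from 13.03 ± 2.1 to 31.6 ± 6.4 CPM, held under TMM scaling. Egln3, a prolyl hydroxylase that is itself a HIF target, stood at 28.7, 39.9, 24.1 and 18.2 CPM in mature and 74.7, 44.9, 62.3 and 42.0 in inflammatory cells, 2.02-fold apart by CPM and overlapping under TMM scaling.

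**Figure D3:**
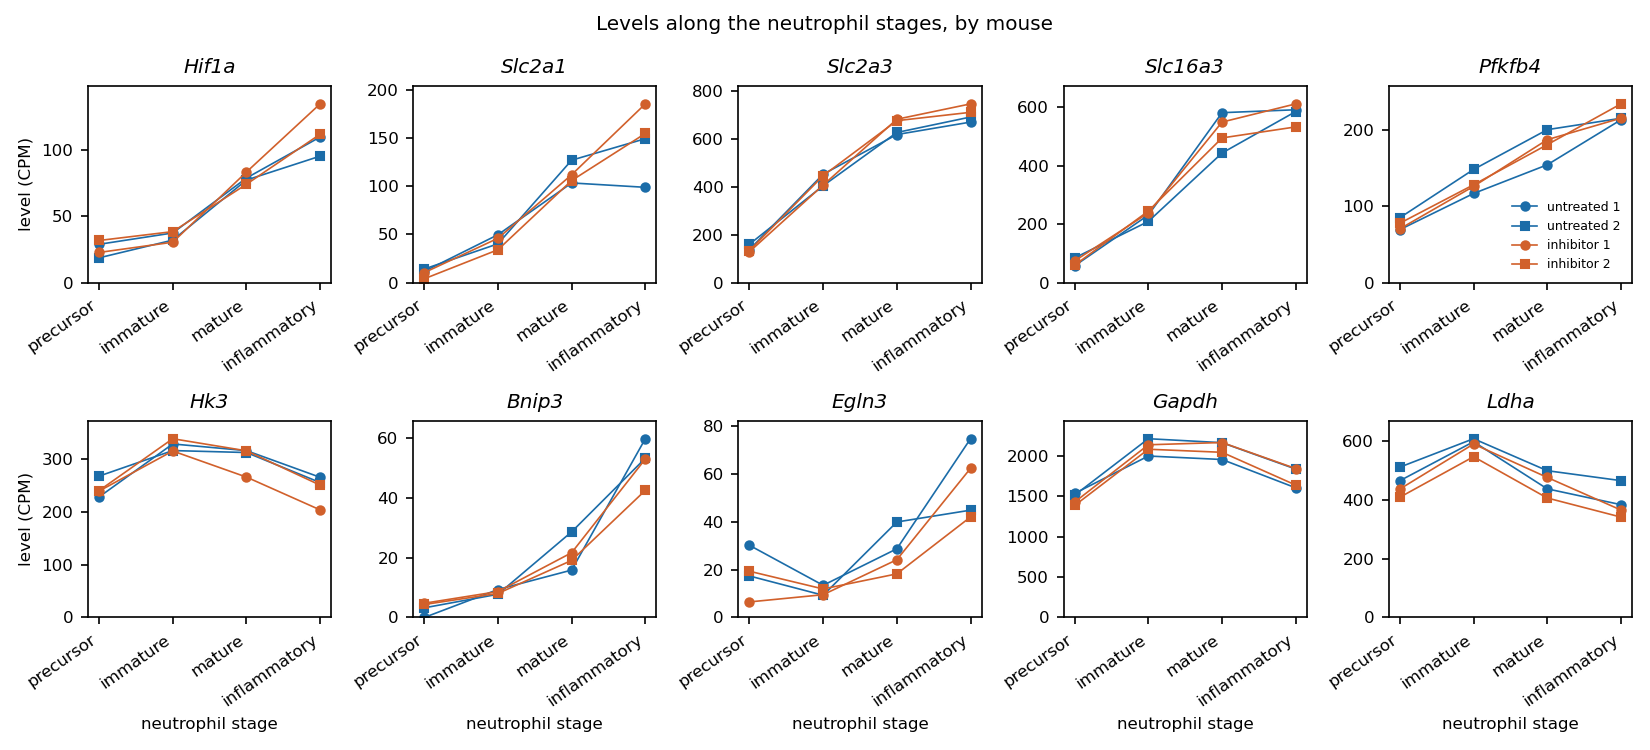
Level (CPM, linear axes from 0) of 10 of the genes at the 4 neutrophil stages, 1 line per mouse (blue untreated, orange inhibitor). Hif1a, Slc2a1, Slc2a3, Slc16a3, Pfkfb4 and Bnip3 have higher means at each later stage in these units, while Hk3, Gapdh and Ldha are highest at the immature stage, and untreated and inhibitor lines run together.

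In counts, immature cells had 12 genes higher and 3 lower than precursors of 27 with at least 10 CPM, beside 19.7% and 38.4% of all genes. Under TMM scaling these were 20 and 1 of 28, beside 35.7% and 21.5% of all genes. Mature cells had 8 higher and 3 lower than immature cells of 28, beside 18.2% and 14% of all genes. Under TMM scaling these were 7 and 4 of 29, beside 13.6% and 13.3% of all genes. Inflammatory cells had 5 higher (Hif1a, Pfkfb4, Bnip3, Egln1, Egln3) and 2 lower (Hk3, Gapdh) than mature cells of 29, beside 14.4% and 6.41% of all genes. TMM scaling left 2 higher (Bnip3, Egln1) and made 7 lower, beside 3.8% and 13.9% of all genes. All 7 were glycolytic enzymes (Hk3, Gpi1, Gapdh, Pgk1, Eno1, Pkm, Ldha). The direction of this last step for the set as a whole thus depends on the scaling. Precursor cells had a median of 26261 counts, against 7052 in mature cells. When every cell was thinned to 2000 counts, the summed levels were 7587 CPM in precursors and 9679 in immature cells. Immature cells then had 9 genes higher and 2 lower than precursors, beside 14.4% and 26.1% of all genes.

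Microglia combined low levels of the shared enzymes with the highest levels by CPM of Hk2, Pfkfb3, Pdk1 and P4ha1, of which all but Pfkfb3 were highest there under TMM scaling too. Against monocytes and macrophages, 11 of 29 genes were lower and 4 higher without overlap, beside 17.8% and 18.3% of all genes. The counts were the same under TMM scaling, beside 14.9% and 22.4% of all genes. Pkm stood at 428, 469, 271 and 387 CPM in microglia and 892, 854, 895 and 1015 in monocytes and macrophages, 2.35-fold higher in the latter. The 4 genes higher in microglia were Hk2 (2.34-fold), Pfkfb3 (4.74-fold), Pdk1 (2.35-fold) and P4ha1 (2.50-fold). P4ha1, a collagen prolyl hydroxylase subunit and HIF target, stood at 139, 129, 116 and 120 CPM in microglia and 40.5, 77.1, 38.8 and 45.5 in monocytes and macrophages. Pdk1 had 44.5, 42.1, 71.3 and 38.1 CPM in microglia and 20.7, 32.7, 3.75 and 26.2 in monocytes and macrophages. In the 564 microglia without any T cell receptor transcript, the means of these 4 genes were at least as high: Hk2 had 190, 207, 126 and 184 CPM, P4ha1 173, 130, 124 and 125, Pfkfb3 170, 184, 184 and 198, and Pdk1 51.2, 79.4, 62.6 and 54.7.

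Against all neutrophils, microglia had 7 genes higher and 17 lower of 30, beside 66.5% and 15.7% of all genes (3 and 23 under TMM scaling). Against all T cells microglia had 7 higher and 14 lower of 27, beside 34.4% and 30.3% of all genes (34.6% and 30.9% under TMM scaling, with the same counts). Without the cells holding T cell receptor transcripts these were 6 higher and 16 lower, beside 30.8% and 26.7%. Monocytes and macrophages had 8 higher and 13 lower of 30 than all neutrophils, beside 57.2% and 12.8% of all genes. Under TMM scaling these were 2 and 21 of 29, beside 20.1% and 37.8% of all genes.

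Monocytes and macrophages varied between mice in several genes. Vegfa stood at 85.7, 25.7, 5.63 and 39.3 CPM in them and Slc2a1 at 128, 42.0, 31.3 and 110. The mice high in both genes, untreated 1 and inhibitor 2, were also those with the higher median share of mitochondrial counts in this class, 11.85% and 11.1% against 7.33% and 5.94%. The part of that share in these levels was not tested. The highest class of Vegfa was inflammatory neutrophils among cells with at most 10% mitochondrial counts, and also under TMM scaling without that limit. Pfkp was 8.29-fold higher in monocytes and macrophages than in microglia, at 200, 109, 102 and 193 CPM against 29.6, 23.1, 7.46 and 12.6.

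Among T cells, regulatory T cells had the highest summed level of the subsets that were fitted, 7449 ± 762 CPM, followed by CD4 cells at 6593 ± 689, gamma-delta cells at 5546 ± 136 and CD8 cells at 4828 ± 382. Regulatory and CD4 cells overlapped in this sum. Cycling T cells, which were not fitted, had a higher mean (8274 ± 1385 CPM) and overlapped regulatory T cells. T cells without a subset name had a lower mean (3801 ± 350). Of 27 genes, 5 were higher in regulatory than in CD4 cells without overlap (Gpi1, Slc16a3, Bnip3, Egln3, P4ha1) and none was lower, beside 10.4% and 8.36% of all genes. Under TMM scaling 3 of 26 were higher (Slc16a3, Egln3, P4ha1) and 0 lower, beside 7.9% and 12.8% of all genes. Slc16a3 stood at 68.2, 60.3, 47.3 and 84.2 CPM in regulatory and 36.2, 20.8, 25.2 and 31.7 in CD4 cells, and P4ha1 at 95.2, 60.3, 96.1 and 71.5 against 46.6, 40.8, 33.1 and 42.1. Hif1a was highest in regulatory T cells, at 267, 236, 187 and 335 CPM, which overlapped CD4 cells at 209, 208, 191 and 213. Below these came gamma-delta cells at 129 ± 19 CPM, and CD8 cells at 74.8 ± 33.6 were lowest of the 4 subsets. Of 25 genes, CD8 cells had 10 lower and 1 (Hk1) higher than CD4 cells, beside 8.9% and 5% of all genes. TMM scaling left 7 of 24 lower and 0 higher, beside 8.5% and 5.2% of all genes. Gamma-delta cells differed from CD4 cells in 2 of 26 genes, Hif1a and Egln3, both lower, beside 7.28% of all genes lower and 5.85% higher. Under TMM scaling they differed in Hif1a alone, beside 9.5% of all genes lower and 4.7% higher. The 270 cycling T cells had 1 gene higher (Gapdh) and 4 lower (Hk2, Pfkfb3, Bnip3l, Pdk1) than CD4 cells of 27, beside 15.8% and 16.7% of all genes, with 21 such cells in inhibitor 1.

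Within CD4 cells the summed level differed more between the larger clusters than between the T cell subsets that were fitted. The cluster led by Ccl1 and Nrgn, whose leading genes also include Rgs16, Nr4a3, Tnfrsf9 and Il17a, had 437 cells and a summed level of 10738, 8915, 9014 and 9522 CPM. The cluster led by Nsg2 and Tcf7 had 809 cells and 4870, 5012, 4727 and 4943, and the largest cluster, led by Cxcr6 and Cd40lg, had 3377 cells and 7041, 6473, 5628 and 6970. The sums of the Ccl1, Tcf7 and Cxcr6 clusters did not overlap. A smaller CD4 cluster, led by Ifit3 and Ifit1, had 115 cells and 6728, 5538, 3956 and 6271 CPM. It overlapped the Tcf7 and Cxcr6 clusters. Tcf7 encodes a transcription factor of naive and memory-like T cells, and Nr4a3 and Tnfrsf9 are known to be induced by T cell receptor signals. Of 26 genes, 16 were higher and 1 lower in the Ccl1 cluster than in the Tcf7 cluster, beside 9.66% and 8.65% of all genes, and TMM scaling left 15 and 1. The median log2 ratio was 1.06 over the 26 genes and -0.00021 over all genes.

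Tpi1 showed the widest of these differences among the enzymes, at 613, 430, 322 and 532 CPM in the Ccl1 cluster and 110, 76.6, 43.8 and 91.0 in the Tcf7 cluster, 5.90-fold apart. Pgk1, phosphoglycerate kinase, stood at 670, 451, 607 and 526 CPM against 216, 167, 209 and 209, 2.81-fold apart. Gapdh was 2.17-fold, Aldoa 2.36-fold, Pkm 1.88-fold and Ldha 1.42-fold higher, though Ldha overlapped under TMM scaling, and the glucose transporter Slc2a3 3.05-fold (117 ± 18 against 38.4 ± 4.9 CPM). Hif1a stood at 351, 311, 449 and 323 CPM in the Ccl1 cluster, 190, 205, 189 and 193 in the Cxcr6 cluster and 161, 132, 94.8 and 178 in the Tcf7 cluster. The gene that ran the other way was Pdk1, at 19.2, 8.88, 9.29 and 16.4 CPM in the Ccl1 cluster and 37.4, 58.0, 43.8 and 45.1 in the Tcf7 cluster, 3.43-fold lower in the former. Against the Cxcr6 cluster, 12 of 26 genes were higher in the Ccl1 cluster and Pdk1 again was lower, beside 7.75% and 8.57% of all genes. In inhibitor 1 the Ccl1 cluster held only 37 cells, which limits its values for the low genes.

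**Figure D4:**
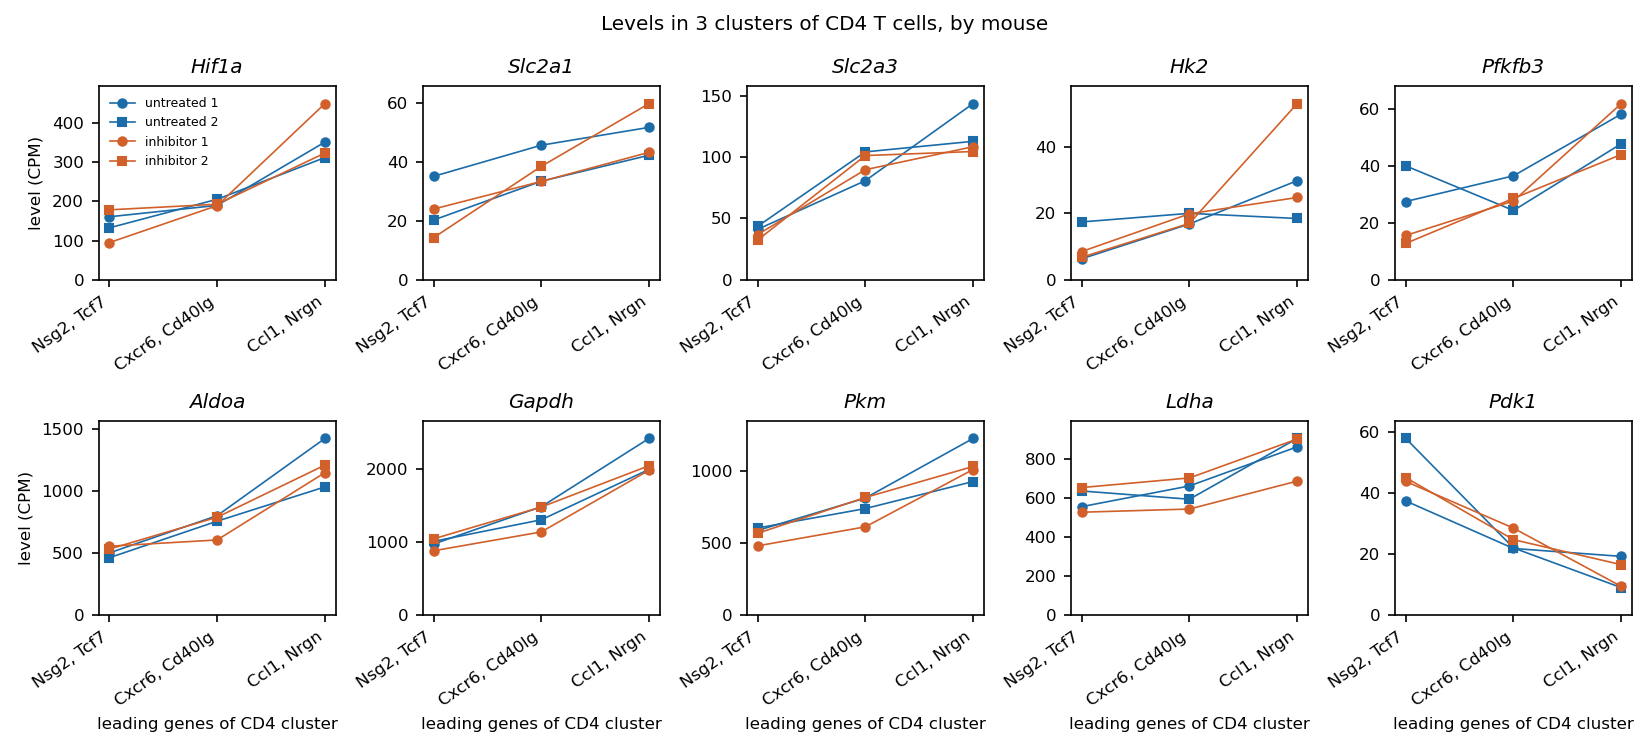
Level (CPM, linear axes from 0) of 10 of the genes in the 3 largest CD4 clusters, named by their leading genes, 1 line per mouse (blue untreated, orange inhibitor). In all 4 mice 9 of the genes are higher in the Ccl1 cluster than in the Tcf7 cluster, and Pdk1 is lower.

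The comparison of inhibitor-treated with untreated mice asked whether the treatment shifted these genes within a class. Counts were summed per mouse and class and tested with edgeR's quasi-likelihood test, with Benjamini-Hochberg adjustment over all genes of the class. None of the 32 genes passed an adjusted p of 0.05 in any of the 12 classes fitted, and none passed with DESeq2. The share of all genes that passed was 0% in 10 classes, 0.00991% in cycling precursors and 0.0219% in CD8 T cells. An exact permutation test of 2 against 2 mice cannot give a two-sided p under 0.333. At an unadjusted p below 0.05, 9 of 32 genes stood out in microglia, beside 8.93% of all genes. In neutrophils there were 2 of 31 over all cells (4.92% of all genes), 2 of 30 in mature cells (5.29%) and none in precursors (4.15%), immature cells (5.49%) and inflammatory cells (4.78%). In the other classes there was 1 each in monocytes and macrophages (3.6% of all genes), CD4 (4.36%), CD8 (4.74%) and regulatory T cells (4.12%), and none in gamma-delta (4.96%) and all T cells (4.05%).

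In microglia the median log2 fold of inhibitor over untreated was -0.34 over the 32 genes and 0.018 over all 14259 genes tested, and 16 genes were lower and 4 higher in both inhibitor mice than in both untreated mice, beside 18.8% and 22.3% of all genes. At an unadjusted p below 0.05, 8 were lower and 1 higher, beside 5.99% and 2.95% of all genes. Ldha stood at 257, 274, 131 and 200 CPM (log2 fold -0.71 ± 0.25 SE, adjusted p = 0.473), and Pgk1 at 106.1, 128.9, 69.5 and 77.4 (-0.71 ± 0.22, adjusted p = 0.421). Tpi1 had 141, 169, 76.4 and 110 CPM (-0.76 ± 0.25, adjusted p = 0.444), and Pfkp 29.6, 23.1, 7.46 and 12.6 (-1.41 ± 0.37, adjusted p = 0.330). Egln3 had 5.201, 8.28, 2.09 and 1.66 CPM (-1.87 ± 0.61, adjusted p = 0.430). The gene higher in the inhibitor mice was Pfkfb3, at 134.3, 105.5, 184.1 and 167.6 CPM (0.52 ± 0.22, adjusted p = 0.541). In each of these 6 genes the untreated and inhibitor mice did not overlap. Pfkp passed when genes of low counts were not filtered out (adjusted p = 0.0238 by edgeR), and 3 other genes (Hk1, Bnip3l, Ddit4) passed when untreated 1 was left out.

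T cell transcripts in the microglia class were also lower in the inhibitor mice, and their part in this shift was not tested. The 13 T cell markers summed to 1316 and 3574 CPM in the microglia of the untreated mice and to 463 and 659 in those of the inhibitor mice, and all 13 were lower in both inhibitor mice. They summed to between 9261 and 10230 CPM in T cells. The 17 microglia markers ran the other way, at 36710 and 26500 against 44220 and 39250 CPM. The microglia without T cell receptor transcripts, as listed above, were 179, 59, 167 and 159 cells. Their median log2 fold was -0.13 over 28 genes and -0.0032 over all genes. The summed level of the 32 genes in these cells was 3461, 3663, 2965 and 3177 CPM. Ldha (201, 190, 119 and 128 CPM, log2 fold -0.68 ± 0.28), Aldoa (306, 571, 268 and 251, -0.77 ± 0.31) and Pkm (341, 422, 225 and 277, -0.62 ± 0.26) were lower there at an unadjusted p below 0.05, and Hk3 (79.6, 62.0, 89.8 and 167, 0.83 ± 0.37) was higher, beside 1.77% of all genes lower and 1.64% higher (3.42% in all), each with an adjusted p of 0.999 by edgeR. Pgk1 was at 69.1, 42.6, 56.0 and 49.3 CPM there (-0.14 ± 0.40), and Pfkfb3 at 0.093 ± 0.27 on the log2 scale. Pfkp and Egln3 had too few counts there to be fitted, so the median of -0.13 leaves them out. The median over all cells of the class includes them. Only 59 such cells came from untreated 2.

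**Figure D5:**
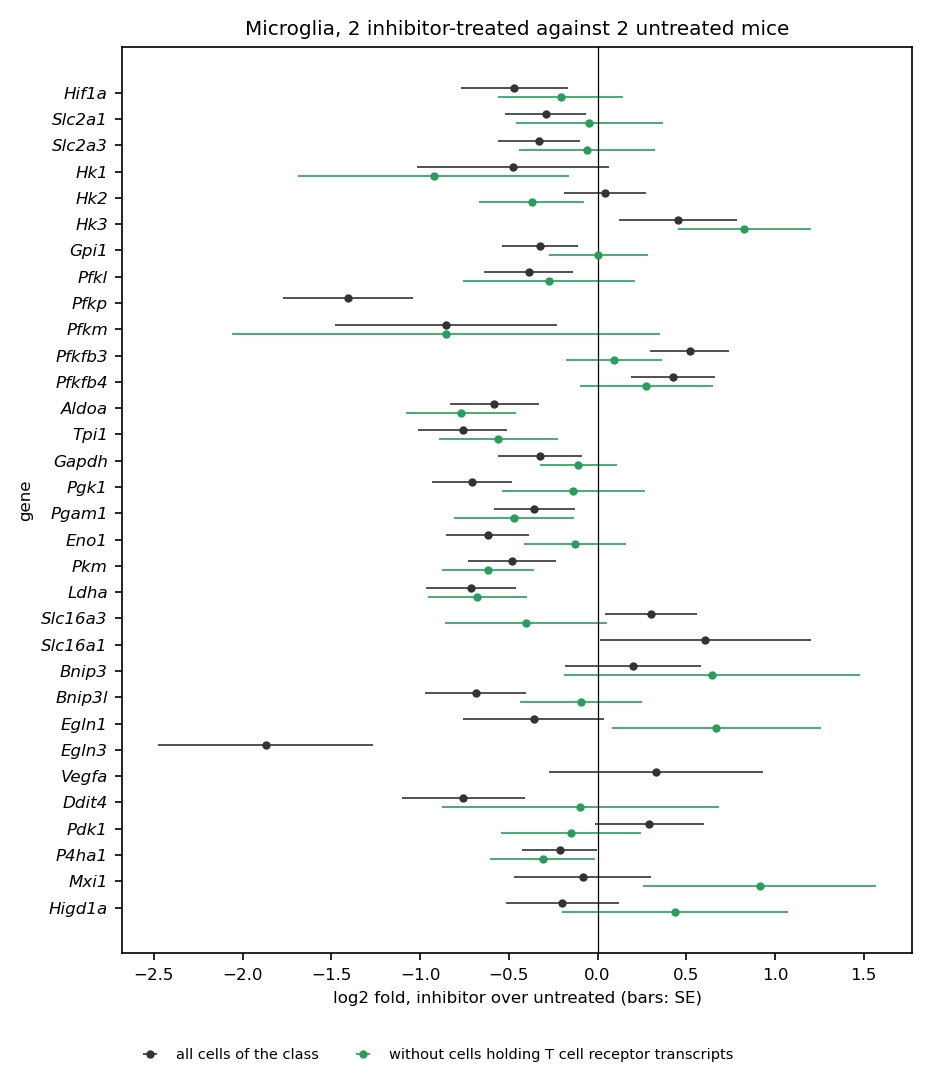
Log2 fold of inhibitor over untreated (2 against 2 mice, edgeR, bars are SE) for each of the 32 genes in microglia, over all cells of the class (dark) and without cells holding T cell receptor transcripts (green, 28 genes). The median is -0.34 in all cells and -0.13 without those cells, and no gene passed the adjusted threshold in either.

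In neutrophils the 2 groups were close. The median log2 fold was -0.0037 in all neutrophils, -0.15 in precursors, -0.063 in immature, -0.073 in mature and -0.060 in inflammatory cells. Tpi1 in mature neutrophils stood at 105, 143, 89.7 and 88.1 CPM (log2 fold -0.54 ± 0.19 SE, adjusted p = 0.932), and Egln3 at 28.7, 39.9, 24.1 and 18.2 (-0.75 ± 0.28, adjusted p = 0.932). Both passed the adjusted threshold when untreated 1 was left out (adjusted p = 0.00085 for Tpi1 and 0.0237 for Egln3), a fit in which untreated 2, the higher of the pair, stands alone. Egln3 over all neutrophils had 28.1, 22.8, 20.5 and 18.4 CPM (-0.41 ± 0.17, adjusted p = 0.983). Pfkm, at 0.43, 0.23, 1.00 and 1.72 CPM there, had too few counts to weigh.

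In the other classes 1 gene each stood out without passing. Pfkl was lower in CD4 cells of the inhibitor mice, at 45.1, 49.1, 28.0 and 35.7 CPM (log2 fold -0.55 ± 0.18 SE, adjusted p = 0.999). Tpi1 had 128, 77.6, 35.8 and 73.4 CPM in CD8 cells (-0.92 ± 0.42, adjusted p = 0.978). Egln1 in regulatory T cells had 134, 96.0, 30.6 and 80.2 CPM (-0.99 ± 0.42, adjusted p = 1.00 by edgeR) and passed without inhibitor 2, when its log2 fold was -1.90 (adjusted p = 0.00298). Pfkm in monocytes and macrophages had 0, 1.17, 13.8 and 15.2 CPM (adjusted p = 1). Median log2 folds were -0.10 in CD4, -0.060 in CD8, 0.0043 in regulatory, 0.20 in gamma-delta and -0.059 in all T cells, and -0.21 in monocytes and macrophages. A model over both classes, with the mouse as a term, detected no difference in treatment effect between neutrophils and T cells for any of the 32 genes. The count was 0 at an adjusted p below 0.05 and 0 at an unadjusted one, beside 3.83% of all genes at the latter. Without a filter on low genes, 2 had an unadjusted p below 0.05, beside 4.89% of all genes.

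Another 78 listed genes of neighbouring steps, oxygen sensing and glucose sensing were read in the same fits, and none passed an adjusted p of 0.05 in any class by edgeR. In microglia 9 of 67 were lower and 1 higher at an unadjusted p below 0.05, beside 5.99% and 2.95% of all genes, and without cells holding T cell receptor transcripts 6 of 58 were lower, beside 1.77%. The 3 with the smallest p were Cxcr4, a chemokine receptor, at 16.9, 33.4, 5.07 and 8.87 CPM (log2 fold -1.84 ± 0.46 SE, adjusted p = 0.314), the repressor Bhlhe40 at 61.9, 209, 31.6 and 42.0 (-1.91 ± 0.48, adjusted p = 0.315) and the nuclear receptor Rora at 24.4, 69.4, 15.5 and 16.6 (-1.56 ± 0.45, adjusted p = 0.374). All 3 were high in untreated 2, the mouse with most T cell transcripts in this class, and Bhlhe40 stood at 478 to 612 CPM in CD4 T cells. The part of T cell transcripts in these 3 folds was not tested. Without cells holding T cell receptor transcripts the log2 fold of Bhlhe40 was -0.013 ± 0.58, that of Rora -1.26 ± 0.87 and that of Cxcr4 -1.004 ± 0.96. Without untreated 2 the log2 folds of Bhlhe40, Rora and Cxcr4 were -0.76, -0.61 and -1.26 and did not pass, and without untreated 1, when untreated 2 stood alone, all 3 passed (adjusted p = 4.3e-14, 4.0e-07 and 0.00014 by edgeR).

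In immature neutrophils 5 of 60 of the listed genes were higher and 2 lower at an unadjusted p below 0.05, beside 5.49% of all genes in either direction. Pgls, an enzyme of the pentose phosphate pathway, stood at 85.9, 75.9, 117 and 116 CPM (log2 fold 0.48 ± 0.13 SE, adjusted p = 0.906), Pdk3 at 17.8, 16.5, 27.1 and 36.6 (0.85 ± 0.24) and Mlxip at 22.1, 22.3, 13.04 and 13.9 (-0.77 ± 0.23), both with the same adjusted p by edgeR. Precursors named G6pc3 (1.37, 6.11, 17.1 and 12 CPM), Txnip (41.8, 56.6, 78.6 and 79.0) and Ier3 (158, 158, 95.3 and 136). Inflammatory neutrophils named Hif1an (21.1, 10.6, 5.62 and 5.50 CPM), Pgm2 (13.6, 8.85, 19.8 and 27.9) and Ldhb (10.6, 10.03, 1.76 and 0). Their adjusted p was 0.999 in precursors and 0.957 in inflammatory cells by edgeR.

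Among T cells few of the listed genes had an unadjusted p below 0.05. They were 3 of 67 in CD4 (beside 4.36% of all genes), 2 of 49 in CD8 (4.74%), 4 of 57 in regulatory (4.12%) and 4 of 69 in all T cells (4.05%). Stc2, a secreted glycoprotein, stood at 7.82, 4.11, 1.38 and 1.51 CPM in CD4 cells (log2 fold -2.002 ± 0.48 SE, adjusted p = 0.999), Epas1 at 15.9, 17.1, 12.6 and 8.73, and Pdha1 at 72.2, 65.6, 56.3 and 52.9. Stc2 passed when genes of low counts were not filtered out (adjusted p = 0.0378 by edgeR). In CD8 cells Nampt had 51.1, 33.1, 19.4 and 16.1 CPM and Ankrd37 22.9, 33.1, 12.3 and 7.75. In regulatory T cells Ier3 had 45.3, 41.5, 11.1 and 20.7 CPM, Eno2 14.3, 9.79, 1.39 and 2.38, and Pdk3 20.6, 31.3, 1.39 and 10.3, of which Pdk3 passed without inhibitor 2 (adjusted p = 0.00857 by edgeR). Gamma-delta T cells had 3 of 45, beside 4.96% of all genes, all of them higher: Plin2, a lipid droplet protein, at 36.5, 28.4, 83.5 and 65.2 CPM, Pygl at 5.11, 8.57, 41.0 and 24.9, and Ndrg1 at 7.29, 6.43, 18.9 and 42.2. In monocytes and macrophages Rora had 16.95, 30.4, 4.38 and 6.89 CPM, Pdhb 59.3, 51.4, 92.6 and 108, and Slc2a6 50.9, 43.2, 73.2 and 104. T cell markers in that class were at 695 and 765 CPM in the untreated and 325 and 338 in the inhibitor mice, with 8 of 13 lower in both, and their part in the values of Rora was not tested.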

How the data were processed

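The values are counts per gene and cell, deposited by the authors as whole numbers in a single table and not normalized. The submitters' processing notes name the build GRCm38, while the aligner, the counting tool and whether a count is a read or a molecule are not stated in them. A correction step named in the deposited matrix can set low counts of a gene to 0. The smallest nonzero count of each of the 32 genes was 1, so none showed such a cut. Cells with 1 hashtag, at least 200 genes and at most 20% mitochondrial counts were kept, and 1248 expected doublets were removed. The 2000 most variable genes, without the 32 genes and the other listed pathway genes, gave 40 components for Leiden clustering (leidenalg 0.10.2). Counts were summed per mouse and class and fitted with edgeR 4.0.16 (filterByExpr, TMM, quasi-likelihood test), with Benjamini-Hochberg adjustment over all genes tested in the class. Classes had 1324983 to 40154671 counts per mouse in neutrophils and at least 521842 in T cell subsets, which limits genes of few CPM. The replicate is the mouse, 2 per group. On simulated counts for all neutrophils (14865 genes, 200 changed with a log2 fold of 2), 158 of the 192 tested were recovered with 8 false calls. Smaller folds and classes with fewer counts were not simulated, so recovery there is not known. The genes, lists and tests were chosen with earlier results of these data known. Values by mouse are printed for genes with an unadjusted p below 0.05 and no overlap between groups (up to 5 or 3 per class), and for the 12 genes with the widest range over classes plus Hif1a; other values were chosen after they were seen. Alternatives were DESeq2 1.42.0, RLE scaling, no filter on low genes, a replicate block, doublets kept, at most 10% mitochondrial counts, thinning to 2000 counts, clustering with the 32 genes, TMM scaling between classes and leaving out each mouse.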

Additional observations from a re-analysis of the deposited data

How the results depend on the processing

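As first fitted none of the 32 genes passed between treatments, so no call could reverse. The median log2 fold changed sign under at least 1 alternative in each class except precursors, microglia and monocytes and macrophages, and directions between classes that depend on the scaling are given in the report. DESeq2, RLE scaling and a replicate block changed no count of genes passing and no median by more than its spread. Replicate numbers did not pair the mice (correlation of deviations -0.041 in neutrophils and in T cells), and with the block the count passing was 0 in every class fitted. Without a filter on low genes, 1 gene (Pfkp) passed in microglia, and the median log2 fold was -0.11 in precursors, -0.0066 in immature, -0.016 in mature, 0.045 in inflammatory and 0.024 in all neutrophils. Leaving out each mouse gave 0 to 2 genes passing in mature neutrophils (Tpi1 and Egln3 without untreated 1), 0 to 1 in all neutrophils (Tpi1), 0 to 3 in microglia (Hk1, Bnip3l and Ddit4 without untreated 1) and 0 to 1 in regulatory T cells (Egln1 without inhibitor 2); in such fits the lone mouse is assumed to vary like the other group. The median log2 fold then ranged from -0.18 to -0.11 in precursors, -0.063 to 0.065 in immature, -0.13 to 0.0046 in mature and -0.15 to 0.090 in inflammatory neutrophils, -0.40 to -0.25 in microglia, -0.57 to -0.031 in monocytes and macrophages, -0.27 to 0.075 in CD4, -0.16 to 0.12 in regulatory, 0.10 to 0.22 in gamma-delta and -0.23 to 0.12 in all T cells, and -0.067 to 0.30 for the difference between neutrophils and T cells. With called doublets kept it was -0.032 in immature and -0.019 in mature neutrophils, -0.42 in microglia, -0.51 in monocytes and macrophages and 0.13 in gamma-delta cells. Thinned cells gave -0.024 in precursors, -0.041 in immature neutrophils and -0.070 in gamma-delta cells. Clustering with the 32 genes kept gave -0.036 in immature neutrophils, and at most 10% mitochondrial counts gave 0.093 in gamma-delta cells. Leaving out microglia with T cell receptor transcripts, an alternative chosen after seeing the data, gave -0.13. The cause of these moves was not tested, and the medians other than that of microglia lie within 0.25 of 0 as first fitted.

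Summed levels were 7587 CPM in precursors, 9679 in immature and 9912 in all neutrophils and 5859 in monocytes and macrophages after thinning. They were 9124 in immature and 10150 in mature neutrophils with the 32 genes in the clustering, and 7705 in monocytes and macrophages with doublets kept. TMM scaling across classes gave 9358 in precursors, 18230 in immature, 19240 in mature, 15170 in inflammatory and 16180 in all neutrophils, 2980 in microglia, 4742 in monocytes and macrophages, 5236 in CD4, 3850 in CD8, 5496 in regulatory, 4197 in gamma-delta and 5039 in all T cells. Genes under 10 CPM rest on few counts in the smaller classes, and a difference there was not detectable at this depth.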

Other observations

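Genes beside the main chain of glycolysis also differed between classes. G6pdx, glucose-6-phosphate dehydrogenase, which diverts glucose into the pentose phosphate pathway and so feeds the oxidative burst, stood at 557, 724, 660 and 615 CPM in all neutrophils, 207, 225, 257 and 204 in monocytes and macrophages, 56.7, 48.7, 60.6 and 62.3 in microglia and 39.5, 37.5, 32.3 and 46.9 in CD4 T cells. Along the neutrophil stages it was highest in immature cells (800 ± 67 CPM) and lowest in inflammatory cells (352 ± 75). Slc2a6, a lysosomal glucose transporter, took the other course, from 1.60 ± 1.51 CPM in precursors to 37.2 ± 11.7 in immature, 186 ± 21 in mature and 276 ± 38 in inflammatory neutrophils. Txnip, an inhibitor of glucose uptake, went from 64.0 ± 18.1 CPM in precursors to 407 ± 44 in inflammatory neutrophils.

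Ldhb, the lactate dehydrogenase subunit that favours lactate oxidation, set microglia apart, at 305, 258, 347 and 279 CPM against 5.65, 17.5, 18.1 and 8.26 in monocytes and macrophages and 9.64, 11.8, 11.6 and 5.63 in CD4 T cells. Ndrg1, a known hypoxia-induced gene, was at 3.68, 2.44, 4.18 and 3.51 CPM in microglia and 91.4, 107, 131 and 90.9 in monocytes and macrophages. These differences between classes were not tested, for the reason given above.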
